A study of Homo sapiens with 9 samples.

Results

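Transcript levels of 47 interferon-stimulated genes were measured by RNA sequencing in A498 cells, an established human line of clear cell renal cell carcinoma (ccRCC). The genes were chosen by name from a list of canonical interferon targets. The rule used no measured value, but earlier results of these data were known when the genes were chosen. They are 47 of the 27673 genes in the count table. All cells carried a lentiviral pLKO.1 vector that expressed a short hairpin RNA (shRNA) and had been selected in puromycin. The hairpin was a control sequence in shControl, was directed at BMAL1 in shBMAL1 and was directed at ARNT in shARNT, and each group had 3 biological replicates. The labels gave the genotype as wild type for each of the 9 libraries. BMAL1 drives the circadian clock as a dimer with CLOCK, ARNT dimerises with the hypoxia-inducible factors, and the study asked how each contributes to gene expression in ccRCC cells. Each target was depleted with 1 hairpin and no uninfected cells were analysed here, so the effect of losing the target and any other effect of that hairpin cannot be told apart. The labels name no interferon treatment.

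Interferons are cytokines that cells release when they sense viral nucleic acid. Type I interferons bind the IFNAR1 and IFNAR2 receptor chains, the kinases JAK1 and TYK2 phosphorylate STAT proteins, and a complex that includes STAT2 and IRF9 binds the interferon-stimulated response element (ISRE). Interferon gamma acts through IFNGR1 and IFNGR2, and its targets carry the gamma-activated sequence (GAS). The induced genes encode sensors of viral RNA, enzymes that degrade RNA or block translation, the ubiquitin-like protein ISG15 with its conjugation enzymes, and membrane proteins that hinder viral entry or release. Foreign nucleic acid, including vector and hairpin RNA, is known to be able to induce such genes.

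Promoter sequence was examined to see which of these genes carry the ISRE and GAS motifs near their start. RefSeq promoters (GRCh38.p14, from 250 bases before to 50 bases after the transcription start) were matched for 38 of the 47 genes. The ISRE core was searched as GAAANNGAAA or TTTCNNTTTC, and it was present in 24 of the 38 promoters (63.2%) and in 1255 of all 35116 promoters of the same length (3.57%). The GAS core, TTCNNNGAA, was present in 10 of the 38 (26.3%) and in 7.66% of all promoters. The E-box CACGTG, the motif that BMAL1 and CLOCK bind, was present in 3 of the 38 (7.89%) and in 7.26% of all promoters. The core of the hypoxia response element (HRE), searched as ACGTG or CACGT and contained in every E-box, was present in 8 of the 38 (21.1%) and in 21.4% of all promoters. Both strands were searched for each motif. The following stretches of 60 bases are shown for genes to which the measurements below return, written along the strand of the gene, with ISRE cores in capitals and overlapping cores run together. ISG15 (chr1:1013365-1013424, plus strand) and BST2 (chr19:17405720-17405779, minus strand) each hold overlapping cores, whereas IFIT3 (chr10:89327850-89327909, plus strand) and GBP1 (chr1:89065301-89065360, minus strand) show a core on the opposite strand. IFI6 (chr1:27672251-27672310, minus strand), IFI27 (chr14:94110616-94110675, plus strand), IFITM3 (chr11:320861-320920, minus strand) and IFIH1 (chr2:162318685-162318744, minus strand) complete the set. In IRF1 (chr5:132490863-132490922, minus strand), which had no ISRE core in this window, the capitals mark the GAS core.
ISG15: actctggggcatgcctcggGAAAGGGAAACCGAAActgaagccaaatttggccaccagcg
BST2: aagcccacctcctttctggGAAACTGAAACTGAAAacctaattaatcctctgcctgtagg
IFIT3: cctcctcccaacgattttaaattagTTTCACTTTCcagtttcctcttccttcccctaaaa
GBP1: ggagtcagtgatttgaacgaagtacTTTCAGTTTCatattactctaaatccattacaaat
IFI6: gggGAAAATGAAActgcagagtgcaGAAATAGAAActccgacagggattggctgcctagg
IFI27: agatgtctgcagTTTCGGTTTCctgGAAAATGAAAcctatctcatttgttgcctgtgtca
IFITM3: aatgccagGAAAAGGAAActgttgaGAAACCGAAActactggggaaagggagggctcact
IFIH1: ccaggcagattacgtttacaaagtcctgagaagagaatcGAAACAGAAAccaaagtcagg
IRF1: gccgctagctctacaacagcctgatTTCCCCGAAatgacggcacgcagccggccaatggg

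**Figure D1:**
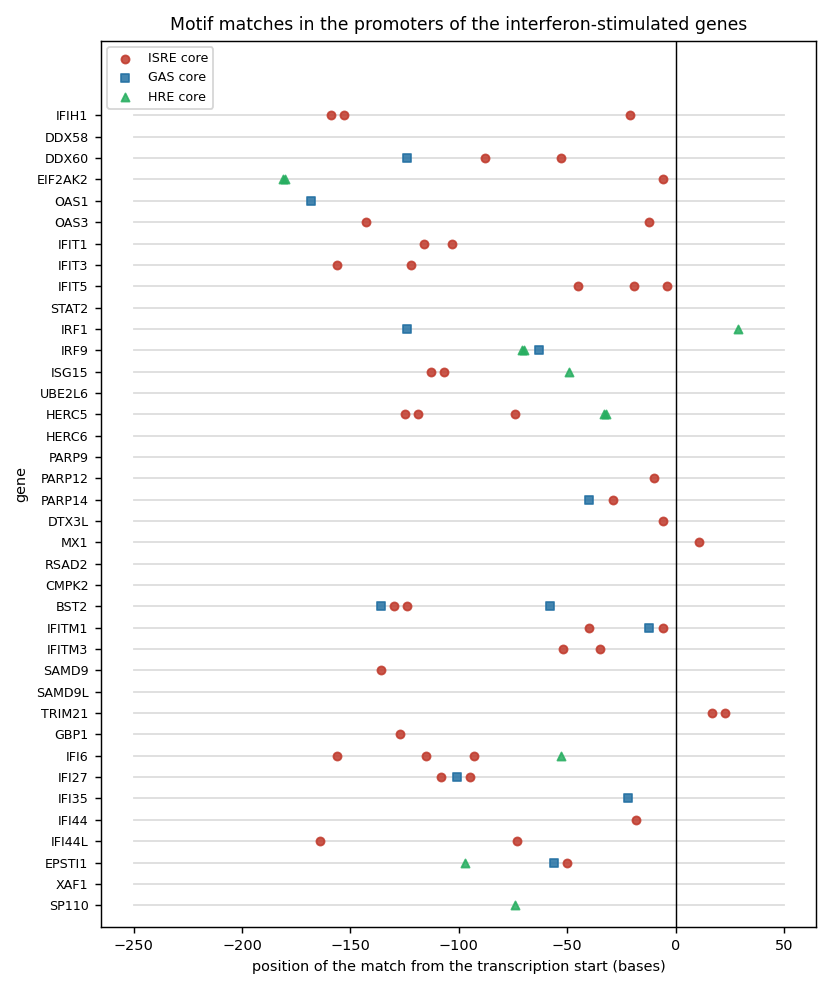
Motif matches in the 38 promoters that were matched, 1 line per gene, with the distance from the transcription start in bases on the horizontal axis (negative values are upstream). Circles are ISRE cores, squares GAS cores and triangles HRE cores. ISRE cores are present in 24 of the 38 genes and lie mostly upstream of the start.

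Library totals ranged from 35269851 to 36099075 counts, and levels are given below as CPM, counts relative to a library size after TMM scaling (trimmed mean of M values). The scaling factors separated the groups, with 0.932 to 0.944 for shControl, 0.961 to 0.971 for shBMAL1 and 1.10 to 1.11 for shARNT. ARNT transcript fell to 18.8% of the shControl level in shARNT (log2 fold change -2.41), and BMAL1 transcript, listed under its older symbol ARNTL, fell to 30.9% in shBMAL1 (-1.70). In each depletion the other target also differed from shControl: ARNT stood at 63.9% of shControl in shBMAL1 (-0.65, adjusted p = 1.54e-08), and ARNTL at 146% of shControl in shARNT (0.55, adjusted p = 8.27e-06). All 6 markers of a kidney or ccRCC line were detected, and CA9 was at 76.4 CPM in shControl and 1.06 CPM in shARNT. Of 6 leukocyte markers, CD3E had no count in any library and PTPRC and IRF8 had at most 12 counts, whereas CD68 was at 1865 CPM in shControl, 1792 CPM in shBMAL1 and 142 CPM in shARNT. CD14 and CD79A were low, with group means of at most 0.698 and 0.518 CPM. Against shControl, CD14 was higher in shARNT (log2 fold change 1.85) and CD79A was lower (-1.63). The 4 endothelial markers summed to at most 0.412 CPM. Of 4 fibroblast markers only COL1A1 passed the filter on low counts, at 237 CPM in shControl, 35.7 CPM in shBMAL1 and 45.4 CPM in shARNT. The part of these markers in the results below was not tested.

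The interferon-stimulated genes together took up between 0.153% and 0.194% of each library. Their summed level was 1770 to 1797 CPM across shControl libraries, 1840 to 1995 CPM across shBMAL1 libraries and 1395 to 1411 CPM across shARNT libraries, so the groups did not overlap. In such bulk samples, fewer cells that express a gene and less of its RNA per cell cannot be told apart. IFITM3, which encodes a membrane protein that blocks fusion of viruses in endosomes, made up a large part of that sum. Without IFITM3 the sums were 1260 to 1283 CPM for shControl, 1465 to 1583 CPM for shBMAL1 and 1170 to 1181 CPM for shARNT. These sums follow TMM scaling, with factors of 0.932 to 0.944 for shControl and 1.10 to 1.11 for shARNT. Without IFITM3, shARNT and shControl differ by a smaller ratio than these factors do. Under library size alone, this sum would therefore be higher in shARNT than in shControl. Per kilobase of transcript, IFITM3 was the most abundant member in shControl at 844 ± 11.2 CPM per kb (SD, n = 3, as for every ± here). BST2 followed at 148 ± 1.31 CPM per kb and IFI27 at 56.3 ± 1.80 CPM per kb, and the shControl libraries of IFI27 overlapped with those of the next gene, IFI6 (50.1 ± 4.02 CPM per kb). At the other end, CMPK2 was at 0.329 ± 0.0314 and RSAD2 at 0.0918 ± 0.0525 CPM per kb. MX2, a restriction factor of retroviruses, had at most 2 counts in any library, was removed by the filter on low counts and is given no fold change. The remaining 46 genes were tested.

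**Figure D2:**
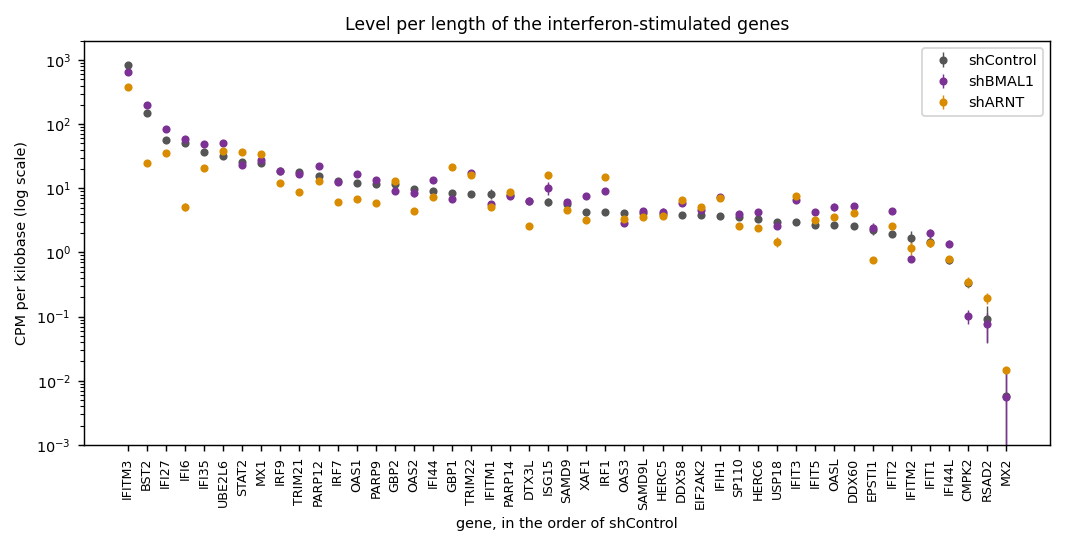
Mean level per kilobase of transcript in CPM per kb (log axis) of the 47 interferon-stimulated genes, ordered by shControl, with points for the 3 groups and bars for SD (n = 3). IFITM3 stands at 844 CPM per kb in shControl and MX2 at the bottom with at most 2 counts per library.

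Expression was compared between groups with the edgeR quasi-likelihood test on all 15551 genes that passed the filter, with Benjamini-Hochberg adjustment over all of them. A gene was called when its adjusted p was under 0.1, and every adjusted p here is of this kind. In shARNT against shControl, 18 of the 46 members were called higher (39.1%) and 24 lower (52.2%), beside 40.5% and 41.3% of all genes tested. The median log2 fold change of the members was -0.24, and that of all genes was -0.0072. In shBMAL1 against shControl, 26 members were called higher (56.5%) and 9 lower (19.6%), beside 31.9% and 31.5% of all genes. Here the median of the members was 0.21, and that of all genes was -0.0015. Both comparisons use the same shControl libraries, so their values for a gene are set side by side and are not independent. In the direct comparison of shARNT with shBMAL1, which uses no control library, 13 members were called higher (28.3%) and 29 lower (63%), beside 40.1% and 41.1% of all genes, and the median was -0.47.

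Size gave a further description. With a fold change of at least 1.5 required beside the adjusted p, 9 members were called higher and 15 lower in shARNT against shControl, where 24.5% and 28.8% of all genes were. In shBMAL1 against shControl, 14 members were called higher and 2 lower, beside 11.2% and 12.4% of all genes. In shARNT against shBMAL1, 6 were called higher and 21 lower, beside 24.1% and 28.4% of all genes. Scaling by library size alone, without TMM, gave all genes tested a median of 0.23 on the log2 scale in shARNT against shControl, 0.05 in shBMAL1 against shControl and 0.18 in shARNT against shBMAL1. Under that scaling 60.5% of the calls over all genes in shARNT against shControl were higher, against 49.6% under TMM, and the members were 19 higher and 17 lower with a median of -0.0011. Small differences that involve shARNT therefore depended on the scaling, and examples are given below.

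**Figure D3:**
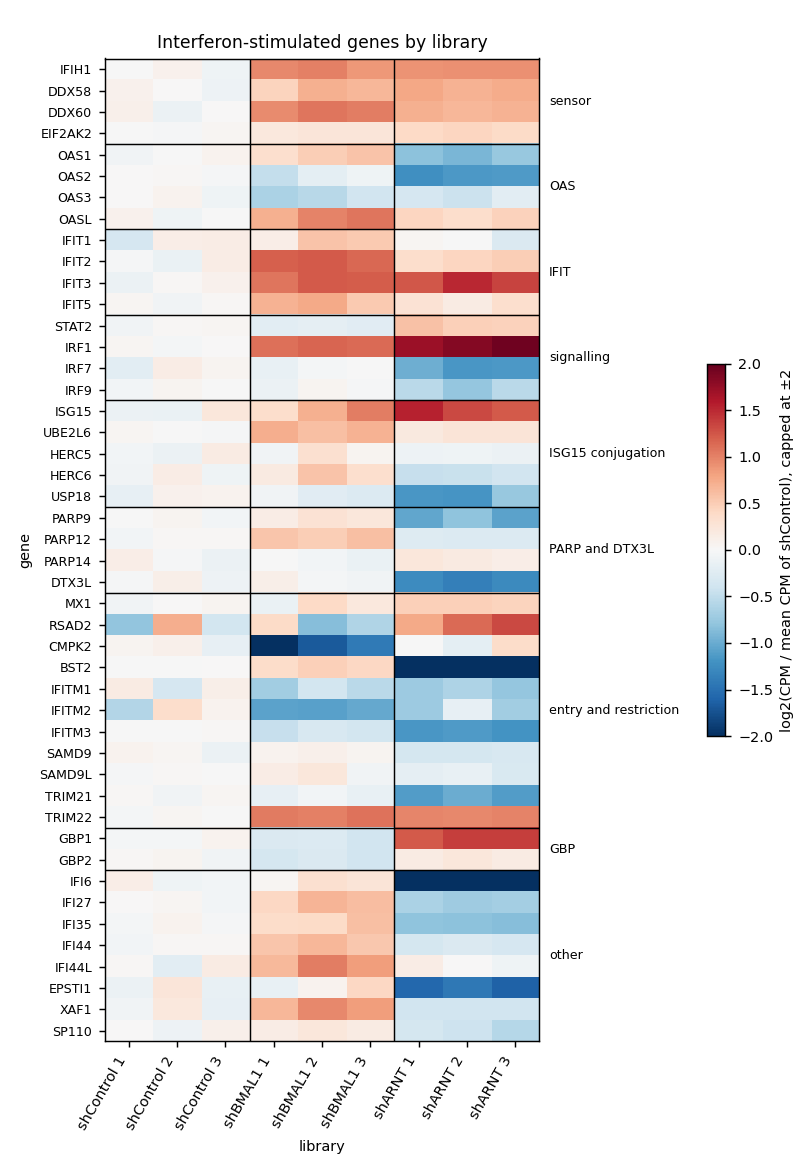
Level of each tested interferon-stimulated gene in each of the 9 libraries, as the log2 ratio of its CPM to the mean CPM of shControl (colour, capped at 2 in either direction), with genes grouped by role. The sensors are higher in all 6 depleted libraries, and BST2 and IFI6 are at the lower limit of the colour scale in the 3 shARNT libraries.

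**Figure D4:**
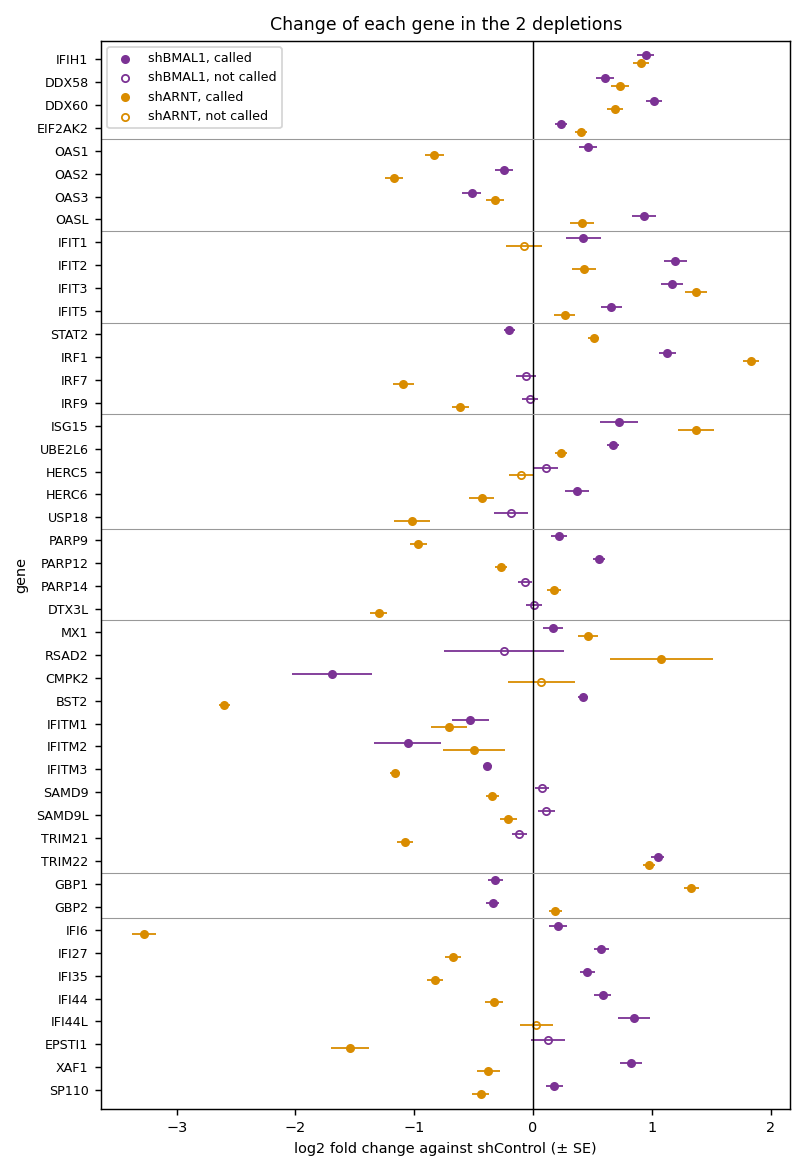
Log2 fold change against shControl of the 46 tested members in shBMAL1 and shARNT (horizontal axis), with bars for SE and open symbols for genes not called at an adjusted p under 0.1. The values run from -3.27 to 1.84 in shARNT and from -1.70 to 1.20 in shBMAL1.

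The 4 sensors of viral RNA rose in each depletion. Of all genes, 31.9% were called higher in shBMAL1 and 40.5% in shARNT. IFIH1 encodes MDA5, which binds long RNA duplexes and signals through MAVS. It was at 13.3, 14.2 and 12.6 CPM in shControl, at 25.9, 27 and 24.5 CPM in shBMAL1 and at 24.9, 25.1 and 25.3 CPM in shARNT. Every depleted library was above every shControl library, and the depleted groups overlapped. Against shControl its log2 fold change was 0.95 (SE 0.0707, adjusted p = 5.89e-10) in shBMAL1 and 0.91 (SE 0.0703, adjusted p = 2.59e-10) in shARNT. The direct difference was -0.04 (adjusted p = 0.597), and under library size alone it was 0.15 and called. DDX60, a helicase that has been described as a cofactor of the RNA sensors, was at 16.7, 14.3 and 15.7 CPM in shControl, at 30.0, 32.8 and 31.8 CPM in shBMAL1 and at 25.4, 24.8 and 25.2 CPM in shARNT. The 3 groups did not overlap, with shBMAL1 highest. Its log2 change from shControl came to 1.02 (SE 0.0695, adjusted p = 1.59e-10) in shBMAL1 and 0.69 (SE 0.0698, adjusted p = 1.76e-08) in shARNT, and shARNT was lower than shBMAL1 by a log2 difference of -0.33 (adjusted p = 0.000146). DDX58, which encodes RIG-I, rose by 0.61 in shBMAL1 and by 0.73 in shARNT on the log2 scale. Its direct difference of 0.12 (adjusted p = 0.121) was called under library size alone (0.31, adjusted p = 5.84e-04) and without shBMAL1 replicate 2 (0.18, adjusted p = 0.0527). EIF2AK2, which encodes the kinase PKR that halts translation in response to RNA duplexes, rose by 0.23 and 0.40.

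The oligoadenylate synthetases make the messenger that activates RNase L, and they did not move as a group. OAS1 rose by 0.47 in shBMAL1 and fell to 56.2% of shControl in shARNT (log2 fold change -0.83). OAS2 was lower in shBMAL1 (-0.25) and in shARNT (-1.17), where it was at 44.5% of shControl. OAS3 was also lower in each (-0.52 in shBMAL1 and -0.32 in shARNT), but its value in shARNT was -0.08 and not called under library size alone. OASL, a relative without the synthetase activity that enhances RIG-I signalling, rose by 0.93 in shBMAL1 and by 0.41 in shARNT. In the direct comparison OAS1, OAS2 and OASL were lower in shARNT. OAS3 was called higher there (0.20), a call that was lost without shBMAL1 replicate 1 (0.14, adjusted p = 0.152) and without shARNT replicate 3 (0.14, adjusted p = 0.138).

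The IFIT genes encode proteins that bind viral RNA with foreign 5′ ends, and all 4 rose in shBMAL1, where 31.9% of all genes were called higher. IFIT2 was at 6.52, 6.01 and 7.30 CPM in shControl, at 15.2, 15.5 and 14.7 CPM in shBMAL1 and at 8.46, 8.95 and 9.30 CPM in shARNT. The groups did not overlap, and shBMAL1 was highest. Compared with shControl, the log2 value shifted by 1.20 (SE 0.0963, adjusted p = 1.83e-09) in shBMAL1 and 0.43 (SE 0.0988, adjusted p = 0.000556) in shARNT, and the direct difference was -0.77 (SE 0.0920, adjusted p = 2.15e-07). IFIT3 rose by 1.17 in shBMAL1 and by 1.37 in shARNT, where it was at 259% of shControl. Its direct difference of 0.20 was called, but not without shBMAL1 replicate 1 (0.15, adjusted p = 0.163) or without shARNT replicate 2 (0.13, adjusted p = 0.216). IFIT5 rose by 0.66 and 0.27. IFIT1, the lowest of the 4 in CPM per kb, rose by 0.42 in shBMAL1, and this call was lost without shControl replicate 1 (0.28, adjusted p = 0.112). In shARNT its log2 fold change was -0.08 (adjusted p = 0.647) and turned to 0.16 under library size alone, not called. The genes of this family whose promoters were matched each held at least 2 ISRE cores.

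Among transcription factors of the pathway, IRF1 rose most. IRF1 is induced by interferon gamma and other cytokines through its GAS and activates many interferon targets itself. It was at 15.3, 14.5 and 15 CPM in shControl, at 32.0, 33.6 and 32.8 CPM in shBMAL1 and at 49.1, 53.3 and 57.8 CPM in shARNT. The groups did not overlap, and the order was shControl, shBMAL1, shARNT. On the log2 scale the change was 1.13 (SE 0.0684, adjusted p = 2.34e-11) in shBMAL1 and 1.84 (SE 0.0667, adjusted p = 1.16e-15) in shARNT, and the direct difference was 0.70 (SE 0.0618, adjusted p = 1.94e-09). STAT2 rose by 0.51 in shARNT and fell by 0.20 in shBMAL1 on the log2 scale. IRF9, the DNA-binding partner of STAT2, fell in shARNT (-0.61), and its value in shBMAL1 was -0.03 (adjusted p = 0.781). IRF7, which drives the later wave of interferon alpha genes, fell to 46.9% of shControl in shARNT (-1.09), and its value in shBMAL1 was -0.06 (adjusted p = 0.574). STAT2 and IRF9 thus went in opposite directions in shARNT.

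ISG15 is a ubiquitin-like protein that is attached to newly made proteins. Its transcript was low, at 3.63, 3.61 and 4.60 CPM in shControl, 5.03, 6.47 and 8.06 CPM in shBMAL1 and 11.5, 9.91 and 9.22 CPM in shARNT. It rose by 0.72 in shBMAL1 and by 1.37 in shARNT on the log2 scale, and the groups did not overlap. UBE2L6, the conjugating enzyme for ISG15, was at 40.4, 39.1 and 38.5 CPM in shControl, at 65.0, 59.4 and 63.8 CPM in shBMAL1 and at 45.3, 46.9 and 46.8 CPM in shARNT. Each depleted library was above each shControl library, with shBMAL1 highest. Against shControl its log2 fold change was 0.67 (SE 0.0523, adjusted p = 1.09e-09) in shBMAL1 and 0.23 (SE 0.0526, adjusted p = 0.000427) in shARNT. HERC5, the main ligase for ISG15, was not called against shControl in shBMAL1 (0.11, adjusted p = 0.361) or in shARNT (-0.10, adjusted p = 0.353), and the latter was 0.14 under library size alone. Its direct difference of -0.21 (adjusted p = 0.0564) was lost without shBMAL1 replicate 2 (-0.09, adjusted p = 0.398), without shARNT replicate 1 (-0.21, adjusted p = 0.101), without shARNT replicate 3 (-0.20, adjusted p = 0.114) and under library size alone (-0.02). USP18, which removes ISG15 and restrains the receptor, fell to 49.3% of shControl in shARNT (-1.02), and its value in shBMAL1 was -0.19 (adjusted p = 0.278). HERC6, a relative of HERC5, rose by 0.37 in shBMAL1 and fell by 0.43 in shARNT.

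PARP9 and DTX3L encode partners in a complex that modifies histones and host proteins with ubiquitin and ADP-ribose, and they are neighbours that share a promoter region. Both fell in shARNT, PARP9 to 51.2% (log2 fold change -0.97) and DTX3L to 40.7% (-1.30) of shControl. In shBMAL1 PARP9 rose by 0.22, and DTX3L was at 0.01 (adjusted p = 0.93). PARP12 rose by 0.55 in shBMAL1 and was lower in shARNT (-0.27), a call that was lost under library size alone (-0.03). PARP14 was called higher in shARNT (0.17) and was not called in shBMAL1 (-0.07, adjusted p = 0.364). The direct comparison placed PARP9, PARP12 and DTX3L lower and PARP14 higher in shARNT.

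Of the 11 tested genes for proteins that hinder viral entry, replication or release, 3 were called higher and 7 lower in shARNT, and 3 were called higher and 4 lower in shBMAL1. These were 27.3% and 63.6% of them in shARNT, beside 40.5% and 41.3% of all genes, and 27.3% and 36.4% in shBMAL1, near the 31.9% and 31.5% of all genes. BST2 encodes tetherin, which holds budding virions at the cell surface. It was at 148, 147 and 149.6 CPM in shControl, at 192, 206 and 198 CPM in shBMAL1 and at 24.7, 24.8 and 23.8 CPM in shARNT. No library of a group overlapped with another group, and replicates within a group lay close together. Its log2 change from shControl came to -2.60 (SE 0.0456, adjusted p = 1.15e-20) in shARNT, which left 16.5% of the shControl level, and 0.42 (SE 0.0405, adjusted p = 2.38e-08) in shBMAL1. Directly, shARNT was at 12.3% of shBMAL1 (-3.02, SE 0.0458, adjusted p = 1.26e-21). IFITM3 was at 511, 513 and 524 CPM in shControl, at 375, 411 and 398 CPM in shBMAL1 and at 230.2, 236 and 226 CPM in shARNT. The groups did not overlap and stood in the order shControl, shBMAL1, shARNT from high to low. Compared with shControl, the log2 value shifted by -1.16 (SE 0.0389, adjusted p = 3.07e-16) in shARNT and -0.39 (SE 0.0383, adjusted p = 3.96e-08) in shBMAL1, and the direct difference was -0.78 (SE 0.0388, adjusted p = 2.03e-13).

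IFITM1 and IFITM2 are close relatives of IFITM3. The handling of reads that fit more than 1 of them is not given in the sources used here. The values of each, including those of IFITM3 above, are therefore uncertain. IFITM1 was lower in shBMAL1 (-0.53) and in shARNT (-0.71). IFITM2 was at 1.66 ± 0.514 CPM in shControl, 0.799 ± 0.0213 CPM in shBMAL1 and 1.18 ± 0.272 CPM in shARNT, and was called lower in shBMAL1 (-1.06). Its calls in shARNT (-0.50, adjusted p = 0.0918) and between the depletions (0.56, adjusted p = 0.0827) did not hold. The first was lost under DESeq2, under library size alone (-0.26) and without shControl replicate 2 (-0.28), shControl replicate 3 (-0.46), shARNT replicate 1 (-0.40), shARNT replicate 3 (-0.41), shBMAL1 replicate 1 (-0.50) or shBMAL1 replicate 2 (-0.50). The other was lost under DESeq2, with counts divided by 2 (0.52), without any 1 of the shBMAL1 replicates (0.55, 0.55 and 0.58) and without shARNT replicate 2 (0.35).

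TRIM22, an E3 ligase that restricts several viruses, was at 23.2, 24.6 and 23.8 CPM in shControl, at 49.2, 48.3 and 51.0 CPM in shBMAL1 and at 47.1, 46.5 and 47.5 CPM in shARNT. The depleted libraries all lay above shControl, and those of shARNT just below those of shBMAL1. On the log2 scale the change was 1.05 (SE 0.0540, adjusted p = 2.03e-12) in shBMAL1 and 0.98 (SE 0.0538, adjusted p = 1.02e-12) in shARNT. Between the depletions it differed by -0.07 (adjusted p = 0.191), and by 0.12 with a call under library size alone. TRIM21, a cytosolic antibody receptor, fell to 47.4% of shControl in shARNT (-1.08) and was at -0.12 (adjusted p = 0.116) in shBMAL1, a value that was called with a mean of at least 1 CPM required, with counts divided by 2, without shControl replicate 2 (-0.15) and without shBMAL1 replicate 2 (-0.15). MX1, a GTPase that traps viral nucleocapsids, rose by 0.47 in shARNT. Its call in shBMAL1 (0.17, adjusted p = 0.0908) was lost without shBMAL1 replicate 2 (0.04, adjusted p = 0.66), without shBMAL1 replicate 3 (0.15), shControl replicate 1 (0.14), shControl replicate 2 (0.17) or shARNT replicate 2 (0.17). It was also lost under DESeq2 (0.16), with a minimum mean of 1 CPM (0.16, adjusted p = 0.103) and with only the 6 libraries compared in the fit (0.16, adjusted p = 0.118). RSAD2 and CMPK2 are neighbouring genes whose enzymes make antiviral nucleotides, and both were near the lower limit of detection. RSAD2 was at most 0.781 CPM in any library, and its rise in shARNT (1.08, adjusted p = 0.0283) was lost without shControl replicate 1 (0.80, adjusted p = 0.133) or shControl replicate 3 (0.93, adjusted p = 0.102). CMPK2 was at 1.05, 1.09 and 0.908 CPM in shControl, 0.234, 0.319 and 0.382 CPM in shBMAL1 and 1.01, 0.885 and 1.31 CPM in shARNT. It fell by 1.70 on the log2 scale in shBMAL1 and did not pass the test in shARNT (0.07, adjusted p = 0.827). SAMD9 and SAMD9L, which arrest translation in infected cells, were called lower in shARNT (-0.34 and -0.21). Under library size alone SAMD9 was not called (-0.10) and SAMD9L was at 0.03. In shBMAL1 neither was called (SAMD9 0.08, adjusted p = 0.271, and SAMD9L 0.11, adjusted p = 0.201), but both were called higher there under library size alone (0.12 and 0.16), and SAMD9L also without shBMAL1 replicate 3 (0.19, adjusted p = 0.0235). The direct difference of SAMD9L (-0.32) was not called under library size alone (-0.13, adjusted p = 0.112).

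The guanylate-binding proteins coat and disrupt pathogen vacuoles and are classical targets of interferon gamma. GBP1 was at 23.9, 24.0 and 26.0 CPM in shControl, at 20.2, 20.3 and 18.8 CPM in shBMAL1 and at 57.9, 64.4 and 63.9 CPM in shARNT. The groups did not overlap, with shARNT above and shBMAL1 below shControl. Against shControl its log2 fold change was 1.33 (SE 0.0615, adjusted p = 5.53e-14) in shARNT and -0.32 (SE 0.0658, adjusted p = 0.000353) in shBMAL1, and the direct difference was 1.65 (SE 0.0626, adjusted p = 2.37e-15). GBP2 was called in the same directions, at 0.19 in shARNT and -0.34 in shBMAL1. The GBP genes resemble each other, and how shared reads were counted is not given in the sources used here.

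The remaining 8 members have diverse or less defined roles, and all 8 were lower in shARNT than in shBMAL1. Of all genes, 41.1% were called lower in that comparison. IFI6 encodes a mitochondrial and endoplasmic reticulum protein that limits apoptosis and flavivirus replication. It was at 44.4, 38.5 and 39.1 CPM in shControl, at 41.8, 50.5 and 48.5 CPM in shBMAL1 and at 4.34, 3.59 and 4.66 CPM in shARNT. The shARNT libraries were far below all others, and shControl and shBMAL1 overlapped. Its log2 change from shControl came to -3.27 (SE 0.0984, adjusted p = 5.28e-17) in shARNT, which left 10.3% of the shControl level, and -3.48 (SE 0.0978, adjusted p = 1.75e-17) against shBMAL1. In shBMAL1 the value of 0.21 (adjusted p = 0.0275) was not called without shControl replicate 2 (0.17, adjusted p = 0.125) or without shBMAL1 replicate 2 (0.15, adjusted p = 0.155).

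IFI27, a small mitochondrial protein, was at 40.5, 41.6 and 39.0 CPM in shControl, at 53.6, 64.6 and 62.1 CPM in shBMAL1 and at 26.0, 24.6 and 25.1 CPM in shARNT. The groups did not overlap, and shControl lay between the depletions. Compared with shControl, the log2 value shifted by 0.57 (SE 0.0638, adjusted p = 1.90e-07) in shBMAL1 and -0.68 (SE 0.0664, adjusted p = 1.08e-08) in shARNT, and the direct difference was -1.25 (SE 0.0653, adjusted p = 4.24e-13). IFI35, a leucine zipper protein, was at 41.8, 45.0 and 42.0 CPM in shControl, at 55.7, 56.1 and 65.3 CPM in shBMAL1 and at 24.5, 24.2 and 23.9 CPM in shARNT. It too was highest in shBMAL1 and lowest in shARNT without overlap. On the log2 scale the change was 0.46 (SE 0.0621, adjusted p = 2.76e-06) in shBMAL1 and -0.83 (SE 0.0649, adjusted p = 3.2e-10) in shARNT, and the direct difference was -1.29 (SE 0.0641, adjusted p = 1.99e-13).

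EPSTI1 fell to 34.4% of shControl in shARNT (log2 fold change -1.54) and was at 0.13 (adjusted p = 0.464) in shBMAL1. XAF1, which antagonises the apoptosis inhibitor XIAP, rose by 0.82 in shBMAL1 and was called lower in shARNT (-0.38). IFI44 likewise rose by 0.59 in shBMAL1 and was called lower in shARNT (-0.33), and under library size alone neither XAF1 (-0.14) nor IFI44 (-0.09) was called in shARNT. IFI44L rose by 0.85 in shBMAL1 and was at 0.03 (adjusted p = 0.858) in shARNT, or 0.27 with a call under library size alone. SP110, a nuclear body protein, fell by 0.44 in shARNT, and its call in shBMAL1 (0.18, adjusted p = 0.0444) was lost without shControl replicate 2 (0.13, adjusted p = 0.194) or shBMAL1 replicate 2 (0.15, adjusted p = 0.141).

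**Figure D5:**
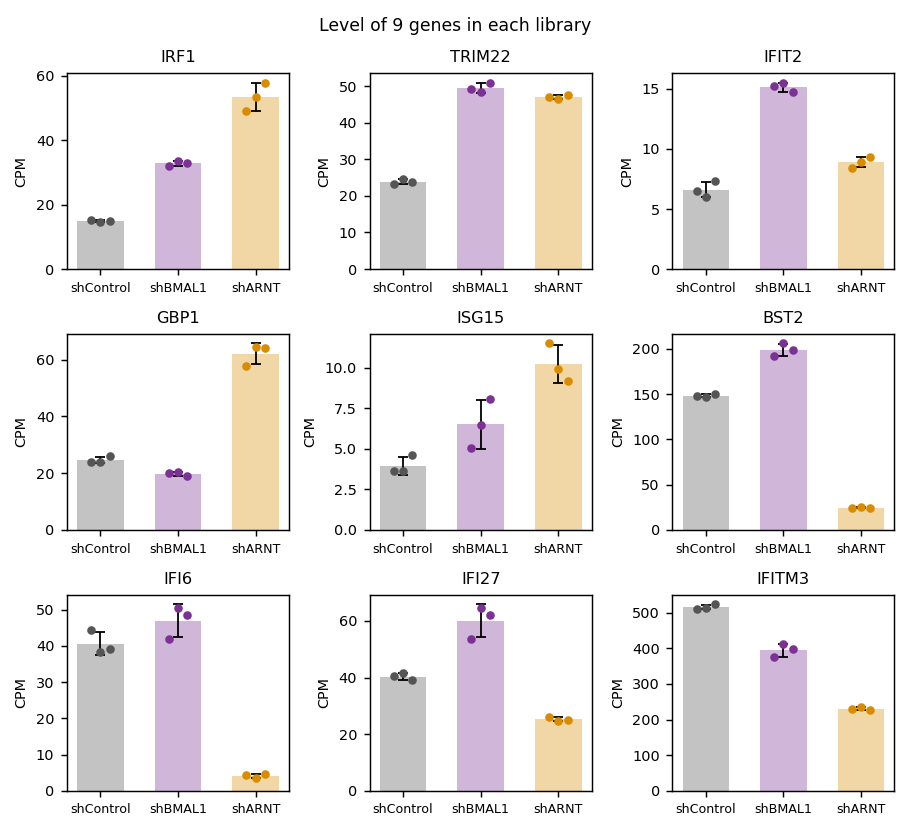
Level in CPM of 9 interferon-stimulated genes in each library (points), with the group mean (bars, from 0) and SD (n = 3). IRF1, TRIM22 and ISG15 are higher in both depletions than in shControl, IFIT2 is highest in shBMAL1 (15.1 CPM), GBP1 is highest in shARNT, and BST2, IFI6, IFI27 and IFITM3 are lowest in shARNT.

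Other genes of the interferon system were taken from a list of 45 that held no member. Of these, 34 were tested. In shARNT 17 were called higher and 14 lower against shControl, in shBMAL1 17 and 7, and in shARNT against shBMAL1 11 and 15, or 18 and 9 under library size alone. As shares, 50% and 41.2% were higher and lower in shARNT (all genes 40.5% and 41.3%), 50% and 20.6% in shBMAL1 (all genes 31.9% and 31.5%), and 32.4% and 44.1% directly (all genes 40.1% and 41.1%). Transcripts of the ligands were at or near 0. Interferon beta (IFNB1) had no count in 7 of 9 libraries and 2 counts in shBMAL1 replicate 3 and shARNT replicate 2. IFNA2, IFNK, IFNG, IFNL2 and IFNL3 had no count in any library, and IFNE, the only ligand tested, was at most 0.585 CPM and was not called. At this depth a count of 0 allows up to 3 counts in a library.

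The receptor chains differed in direction. IFNGR2, the signalling chain for interferon gamma, was at 201, 190.2 and 193 CPM in shControl, at 185, 191 and 181 CPM in shBMAL1 and at 43.4, 44.3 and 48.3 CPM in shARNT. It was lower in shARNT than in all other libraries, while shControl and shBMAL1 overlapped. Against shControl its log2 fold change was -2.10 (SE 0.0476, adjusted p = 5.54e-19) in shARNT and -0.07 (adjusted p = 0.187) in shBMAL1. IFNGR1, the chain that binds interferon gamma, was at 55.5, 53.9 and 53.2 CPM in shControl, at 34.6, 35.6 and 34.7 CPM in shBMAL1 and at 77.4, 81.6 and 84.4 CPM in shARNT. It rose in shARNT (0.58, SE 0.0490, adjusted p = 9.92e-10) and fell in shBMAL1 (-0.63, SE 0.0513, adjusted p = 1.99e-09), and the groups did not overlap. IFNAR1 was at 97.1, 91.0 and 86.4 CPM in shControl, at 109, 107 and 113 CPM in shBMAL1 and at 107, 113 and 102 CPM in shARNT. It was higher in each depletion, by 0.26 (adjusted p = 0.000201) in shBMAL1 and by 0.23 (adjusted p = 0.00033) in shARNT. Its direct difference of -0.03 was not called, but under library size alone it was 0.16 and called (adjusted p = 0.00643). IFNAR2 fell by 0.71 in shARNT and was called higher in shBMAL1 (0.16).

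JAK1 was called lower in shARNT (-0.22, adjusted p = 0.000153), but its value was 0.02 under library size alone, and in shBMAL1 it was -0.0015 (adjusted p = 0.98). Its direct difference (-0.22) was likewise not called under library size alone (-0.028, adjusted p = 0.576). Of the sensing genes, TLR3, the endosomal receptor for RNA duplexes, was at 68.1, 64.6 and 58.9 CPM in shControl, at 38.1, 38.3 and 39.8 CPM in shBMAL1 and at 15.6, 17.2 and 18.0 CPM in shARNT. It fell in shARNT (-1.92, adjusted p = 5.45e-16) as well as in shBMAL1 (-0.72, adjusted p = 5.36e-09). TMEM173, which encodes STING, the adaptor of DNA sensing, was at 125, 123 and 118 CPM in shControl, at 89.5, 86.8 and 86.9 CPM in shBMAL1 and at 36.7, 39.2 and 40.5 CPM in shARNT. It also fell, to a log2 fold change of -1.65 (adjusted p = 4.06e-17) for shARNT and of -0.47 (adjusted p = 3.68e-08) for shBMAL1. IRF2, which competes with IRF1 for its sites, was at 13.3, 11.8 and 13.4 CPM in shControl, at 27.1, 27.8 and 26.6 CPM in shBMAL1 and at 29.7, 27.6 and 30.1 CPM in shARNT. Like IRF1 it rose in each, by 1.08 (adjusted p = 8.4e-11) in shBMAL1 and by 1.18 (adjusted p = 3.49e-12) in shARNT. The direct difference of IRF2, 0.10 (adjusted p = 0.165), was called under library size alone (0.29, adjusted p = 5.01e-04) and without shARNT replicate 2 (0.14, adjusted p = 0.0952).

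Members with and without an ISRE core were then set side by side. Of the 24 with a core, 14 were called higher and 4 lower in shBMAL1, with a median log2 fold change of 0.22, and of the 14 without one 9 were higher and 2 lower, with a median of 0.30. In shARNT, 9 with a core were called higher and 12 lower (median -0.18), and 5 without one were higher and 8 lower (median -0.29). In shARNT against shBMAL1, 7 with a core were higher and 15 lower (median -0.40), and 4 without one were higher and 9 lower (median -0.51). Genes with cores both fell and rose in shARNT, as IFI6 (-3.27) and BST2 (-2.60) and ISG15 and IFIT3 (1.37 each) among the sequences above show. The highest value in shARNT, that of IRF1 (1.84), belonged to a gene without a core. Over all genes tested, 31.9% were called higher and 31.5% lower in shBMAL1, 40.5% and 41.3% in shARNT, and 40.1% and 41.1% in shARNT against shBMAL1. These counts describe the matched promoters and were not tested.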

How the data were processed

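RNA from A498 cells was sequenced in 9 libraries, 3 per group. The authors deposited a table of expected counts, which are reads summed per gene with no normalization. The study's methods name SeqMan NGen and ArrayStar with GRCh37, whereas the submitters' processing notes list STAR, DESeq2 and hg38, and which of these made the table is not settled. The annotation, the use of strand, shared reads and counting of read pairs are not given in the sources used here. A value of 0.05 stood for no reads and was set to 0, values were rounded to whole numbers, and none of the 47 members had a fractional value. The 27716 rows gave 27673 genes after summing 43 names held by more than 1 row. Of these, 28 carried a date in place of a name.

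Groups were taken from the labels. edgeR 4.0.16 (R 4.3.3) was fitted to all 9 libraries with group as the only term, TMM scaling, filterByExpr (15551 genes) and glmQLFTest, and a gene was called when its p, adjusted over all genes by Benjamini-Hochberg, was under 0.1. Depth was 35269851 to 36099075 counts per library, and counting error alone is covered by the limit of 3 counts given for a gene at 0. Alternatives were library size alone, DESeq2 1.42.0, no filter (at least 1 count), a mean of at least 1 CPM, a replicate block, the 6 libraries compared, counts divided by 2, each library left out in turn and a minimum fold change of 1.5. Transcript lengths came from Ensembl canonical transcripts in GENCODE lifted to GRCh37. Promoters came from RefSeq (GRCh38.p14). The computations were run on simulated counts in which a small set of genes, balanced in direction, was altered in shARNT. That simulation held no shift in scaling between groups, so it does not test the dependence on scaling described here. The members, the gene lists and the rule for named genes were chosen with earlier results of these data known. The rule for fuller statistics covered the 6 called members with the smallest p in each comparison and the 3 highest per kilobase. It also covered members called in opposite directions with a log2 fold change of at least 0.5 in each depletion. Of the pathway list it covered JAK1, IFNAR1, IFNB1 and the 3 called genes with the smallest p in each comparison. Some of these values are given without SE, and JAK1 is given without its level in each library. A further gene of this rule is not reported here. ISG15, CMPK2 and IFITM2 were added after their values were seen.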

Additional observations from a re-analysis of the deposited data

Results flagged for a closer look

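The interferon-stimulated genes that follow were picked because the depletions were called in opposite directions against shControl. The direct log2 difference of shARNT from shBMAL1 is the difference of those 2 values. Its call (edgeR quasi-likelihood test, Benjamini-Hochberg adjusted p) was therefore largely fixed by this choice and is given as description only. The share of all genes called in opposite directions is not given here. The log2 difference of shARNT from shBMAL1 was -1.30 for OAS1 (adjusted p = 5.68e-12), -0.80 for HERC6 (4.46e-07), -1.18 for PARP9 (3.68e-12) and -0.82 for PARP12 (6.70e-12). It was -3.02 for BST2 (1.26e-21), -3.48 for IFI6 (1.75e-17), -1.25 for IFI27 (4.24e-13) and -1.29 for IFI35 (1.99e-13). It was -0.92 for IFI44 (3.92e-10), -1.20 for XAF1 (3.16e-10) and -0.62 for SP110 (2.15e-07). STAT2 (0.71, adjusted p = 1.57e-11), GBP1 (1.65, adjusted p = 2.37e-15) and GBP2 (0.53, adjusted p = 1.50e-08) were higher in shARNT. The calls of IFI6 and SP110 in shBMAL1 rested on single libraries, and those of PARP12, IFI44 and XAF1 in shARNT were lost under library size alone. Groups of 3 were too small to look for a library that stood apart.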

How the results depend on the processing

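The replicate numbers did not pair the libraries. Deviations of same-numbered libraries correlated at -0.075 to 0.111 and those of other libraries at -0.108 to 0.104. In 0 libraries did both same-numbered correlations exceed all others. However, shBMAL1 replicate 3 and shARNT replicate 3 correlated best with each other (0.111). With the replicate block the members called higher and lower stayed at 18 and 24 (shARNT), 26 and 9 (shBMAL1) and 13 and 29 (shARNT against shBMAL1), with medians of -0.24, 0.21 and -0.46. Leaving out single libraries gave 17 to 18 higher and 23 to 24 lower in shARNT, 23 to 26 and 9 to 10 in shBMAL1, and 10 to 13 and 28 to 29 directly.

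Library size alone moved the members' median to -0.0011 in shARNT and -0.28 directly, and the pathway genes to 18 higher and 9 lower directly. It turned IFIT1 (0.16), HERC5 (0.14), SAMD9L (0.028) and JAK1 (0.018) in shARNT, IRF9 (0.022) and JAK1 (0.045) in shBMAL1, and IFIH1 (0.15), IFITM1 (0.012), TRIM22 (0.12) and IFNAR1 (0.16) directly. A minimum fold change of 1.5 left 9 members higher and 15 lower in shARNT, 14 and 2 in shBMAL1, and 6 and 21 directly. Over all genes, a minimum added after the data were seen, it left 3813 higher and 4486 lower in shARNT. It left 1735 higher and 1921 lower in shBMAL1, and 3753 higher and 4424 lower directly. A mean of at least 1 CPM turned DTX3L in shBMAL1 to -4.19e-05.

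Some genes that were not called changed sign when single libraries were left out. The ranges in shARNT were -0.22 to 0.021 for IFIT1, -0.10 to 0.19 for CMPK2 and -0.069 to 0.11 for IFI44L. In shBMAL1 they were -0.16 to 0.016 for IRF7, -0.067 to 0.018 for IRF9, -0.00760 to 0.19 for HERC5, -0.12 to 0.0026 for PARP14, -0.051 to 0.067 for DTX3L, -0.71 to 0.31 for RSAD2, -0.032 to 0.26 for EPSTI1 and -0.022 to 0.030 for JAK1. IFNAR1 ranged from -0.065 to 0.012 directly. Apart from the effect of the scaling factors, the causes were not tested. Depth limits MX2, RSAD2, CMPK2, IFITM2 and the ligands.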
